A study of Mus musculus with 12 samples.

Results

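The lysosome breaks down proteins, glycans and lipids that reach it by endocytosis, phagocytosis or autophagy, and 39 mouse genes of this compartment were followed in gonadal white adipose tissue (GWAT). They were taken by symbol from the table of estimated counts of 55281 genes, where each symbol had 1 row, and comprise 8 cathepsins, 2 other proteases, 7 glycosidases, 5 enzymes or carriers of lipids, 5 membrane or other proteins, 10 subunits of the vacuolar proton pump (v-ATPase) and 2 transcription factors. All 39 passed the filter on low counts, so none is missing from the tests below. Bulk RNA sequencing covered 4 groups of 3 libraries from male mice aged 22 to 24 weeks, and each library holds RNA pooled from 3 mice. HoipA-KO mice (Hoip fl/fl AdipoQ.Cre+) lack HOIP, the catalytic subunit of the linear ubiquitin chain assembly complex encoded by Rnf31, in cells in which the adiponectin promoter drives Cre, mainly adipocytes, while WT controls (Hoip fl/fl AdipoQ.Cre-) carry the same floxed alleles without Cre. From 6 weeks of age, mice of both genotypes received a control diet (CD, 14% fat by the labels) or a high-fat diet (HFD, 60% fat) for 16 weeks. The questions were whether loss of HOIP in adipocytes altered these genes on each diet, whether the diet did so in each genotype, and whether cathepsins, glycosidases and proton pump subunits differed in their response. Nothing in the labels says how the mice were assigned to pools, so p-values measure the spread between these pools only.

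Cathepsins are the proteases of the lysosome, glycosidases trim sugars from glycoproteins and glycolipids, and the v-ATPase acidifies the lumen so that these hydrolases can work. The pump consists of a membrane sector, V0, that carries protons across the membrane, and a cytosolic sector, V1, that hydrolyses ATP. TFEB and MITF belong to the MiT family of transcription factors, which bind E-box motifs in promoters of lysosomal genes. In fat, macrophages around dying adipocytes are rich in lysosomes and take up the lipid that these cells release, whereas proton pump subunits are used by every cell type.

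The counts per library ranged from 30513500 to 60540260, and a gene with 3 counts had 0.0532 to 0.0983 CPM (counts scaled to a common library total and normalized by TMM). WT CD replicate 3 was left out of the main tests, as it is from the CPM columns of the authors' comparison tables, and its values are given in brackets or as the fit of all 12 libraries. This library held 3597 genes at more than 8 times their level in every other library, which took 19.8% of its counts, and 5 germ cell markers of the testis summed to 6734 CPM, against at most 377 elsewhere. WT CD replicate 2 held 347 such genes, and 8 markers of epididymal epithelium summed to 14579.6 CPM in it, against 1279 in HoipA-KO HFD replicate 1 and at most 101 in the others. Rnf31 was at 20.2 and 20.6 CPM in WT CD, [12.6] in replicate 3, at 18.3, 17.8 and 19.7 in WT HFD, at 17.9, 18.3 and 21.6 in HoipA-KO CD and at 19.6, 19.0 and 22.5 in HoipA-KO HFD. The groups overlapped on CD, and whole-gene counts of whole tissue do not resolve the deletion in adipocytes. Markers of adipocytes were present in all libraries (10 genes, summed CPM from 5545 to 48059).

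The 39 genes took 0.929% and 1.22% of all counts in WT CD [0.592% in replicate 3], 1.60%, 2.26% and 3.27% in WT HFD, 5.21%, 5.83% and 5.22% in HoipA-KO CD, and 4.23%, 6.14% and 4.75% in HoipA-KO HFD. Every HoipA-KO library was thus above every WT library in this share. Levels of different genes were compared only per kilobase of exon, with exon lengths of GENCODE M21 matched for all 39 identifiers. On this scale Ctsd, which encodes the aspartyl protease cathepsin D, led in WT CD with 606 ± 83.7 (SD, n = 2) CPM per kilobase. Npc2 at 583 ± 527 (SD, n = 2) and Psap at 503 ± 126 (SD, n = 2) followed, and these 3 levels did not differ beyond their SD. The values of Npc2 were 210 and 955, the higher in WT CD replicate 2, and its place rested on that library. In HoipA-KO CD the order was Psap at 5085 ± 510.0 (SD, n = 3), Ctsd at 3964 ± 741 (SD, n = 3), Ctsb at 2224 ± 344 (SD, n = 3) and Ctss at 1720.0 ± 245 (SD, n = 3). The values of Psap (4671 to 5654) and Ctsd (3398 to 4803) overlapped. Those of Ctsb (2017 to 2621) lay above those of Ctss (1494 to 1980), though their means differed by less than the sum of their SDs. Psap encodes prosaposin, the precursor of the saposins that activate glycosphingolipid hydrolases. Tfeb and Mitf were among the lowest of the members in both groups, with 13.1 ± 1.44 (SD, n = 3) and 10.8 ± 2.52 (SD, n = 3) CPM per kilobase in HoipA-KO CD, which differed by less than the sum of their SDs.

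In HoipA-KO GWAT on CD, genes of every class of the lysosome were higher than in WT. Ctss rose 46.1-fold, Laptm5 26.1-fold, Lgmn 14.8-fold, Gla 14.5-fold and Psap 10.1-fold, and among the pump subunits Atp6v1b2 rose 6.18-fold. Of the 39 genes, 29 rose and 0 fell, where 18.9% of the 18427 genes tested were called higher and 18.8% lower (edgeR's quasi-likelihood test, Benjamini-Hochberg adjusted p under 0.05). The median log2 fold change of the 39 was 2.06, against -0.06 over all genes tested. All HoipA-KO libraries exceeded all WT libraries for 33 of the 39, against 28.3% of all genes. DESeq2's Wald test called 1 member lower, as did the test on protein-coding genes alone. At an unadjusted p under 0.05 there were 32 members in either direction. Among the cathepsins 6 of 8 were called higher, with a median of 2.73, 7 of 10 proton pump subunits were called with a median of 1.58, and 4 of 7 glycosidases with a median of 0.84. No test compared the classes with each other. The low median of the glycosidases rested on WT CD replicate 2. Without that library, which left 1 WT CD library, the medians of cathepsins, glycosidases and proton pump subunits were 2.45, 2.40 and 1.44. Without WT CD replicate 1 instead, some members were called lower, against WT CD replicate 2 as the only WT CD library. With all 12 libraries, 30 members were called higher and the medians were 2.93, 1.23 and 1.62. Markers of other cells moved with these genes. On CD 9 of 10 macrophage markers were called higher (median log2 fold change 3.51), and their summed CPM was 557 to 769.7 in WT CD and 8730.4 to 11826 in HoipA-KO CD, none of the 10 being at 0. All 7 markers of lipid-associated macrophages (median 5.16), 4 of 5 mast cell markers (median 6.83) and 4 of 6 markers of fibroblasts and progenitors (median 1.62) were called higher. Of 10 adipocyte markers 9 (median -1.92) and of 5 endothelial markers 2 (median -0.67) were called lower, and of 5 lymphocyte markers 0 were called. The part that these shifts take in the members' changes was not tested, and in bulk tissue fewer cells of a type and less RNA per cell cannot be told apart.

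**Figure D1:**
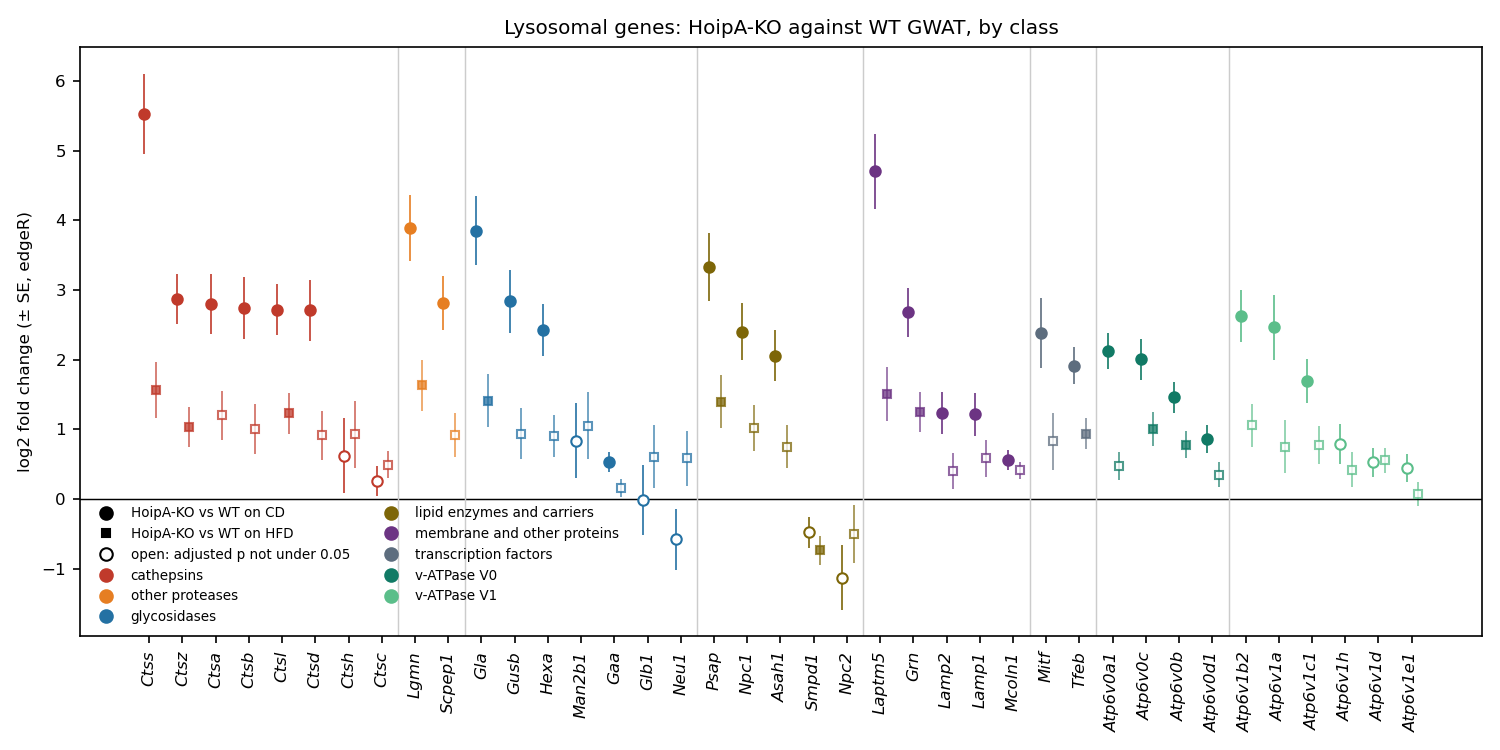
Log2 fold changes of HoipA-KO against WT for the 39 genes, grouped by class and ordered within it by the value on CD, with circles for CD and squares for HFD, bars for the standard error of the edgeR fit, and open symbols where the adjusted p was 0.05 or more. On CD, Ctss (5.53) and Laptm5 (4.70) stood highest, Npc2 (-1.13) lowest, and most squares lay nearer to 0 than the circles.

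A group of 5 members shared a pattern in the WT CD libraries. Npc2, which encodes a soluble carrier that hands cholesterol to NPC1 and is also an abundant secreted protein of the epididymis, was at 694 and 3152 CPM in WT CD [335 in replicate 3], 1148, 1304 and 1508 in WT HFD, 849, 921 and 872 in HoipA-KO CD and 928, 930.3 and 941 in HoipA-KO HFD. Thus 1 WT CD library was above all other libraries and the other 2 were below them all. Cathepsin H (Ctsh), an aminopeptidase, was at 43.2 and 243 CPM in WT CD [30.7], Glb1 (β-galactosidase) at 31.9 and 158 [23.6], Man2b1 (α-mannosidase) at 116 and 564 [77.4] and Neu1 (sialidase 1) at 46.2 and 193 [21.2]. For these 5 genes replicate 2 was 4.17 to 5.64 times replicate 1, and replicate 3 was 0.458 to 0.740 times replicate 1. For the other 34 members the ratio of replicate 2 to replicate 1 lay between 0.376 and 1.61. None of the 5 was called on CD over the 11 libraries, with Npc2 at -1.13 ± 0.46 (adjusted p = 0.0796) and Neu1 at -0.58 ± 0.44 (adjusted p = 0.322). Without WT CD replicate 2 and with replicate 3 in its place, edgeR called Ctsh (2.55 ± 0.27, adjusted p = 0.000916), Man2b1 (2.63 ± 0.34, adjusted p = 0.00112), Glb1 (1.73 ± 0.25, adjusted p = 0.0017) and Neu1 (1.22 ± 0.31, adjusted p = 0.0147) higher in HoipA-KO, while Npc2 was at 0.74 ± 0.30, adjusted p = 0.0797. Other lysosomal genes that are no members, chosen after their values were seen, were likewise highest in replicate 2 among the WT CD libraries. Manba (β-mannosidase) was at 18.5 and 82.4 CPM [20.3] and Atp6v1c2, a pump subunit isoform, at 1.81 and 41.6 [1.41]. Crisp1, which encodes a secreted protein of the epididymis, was at 0.166 and 12261 CPM in the same libraries [0.438]. What the epididymal transcripts contribute to these values was not tested.

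**Figure D2:**
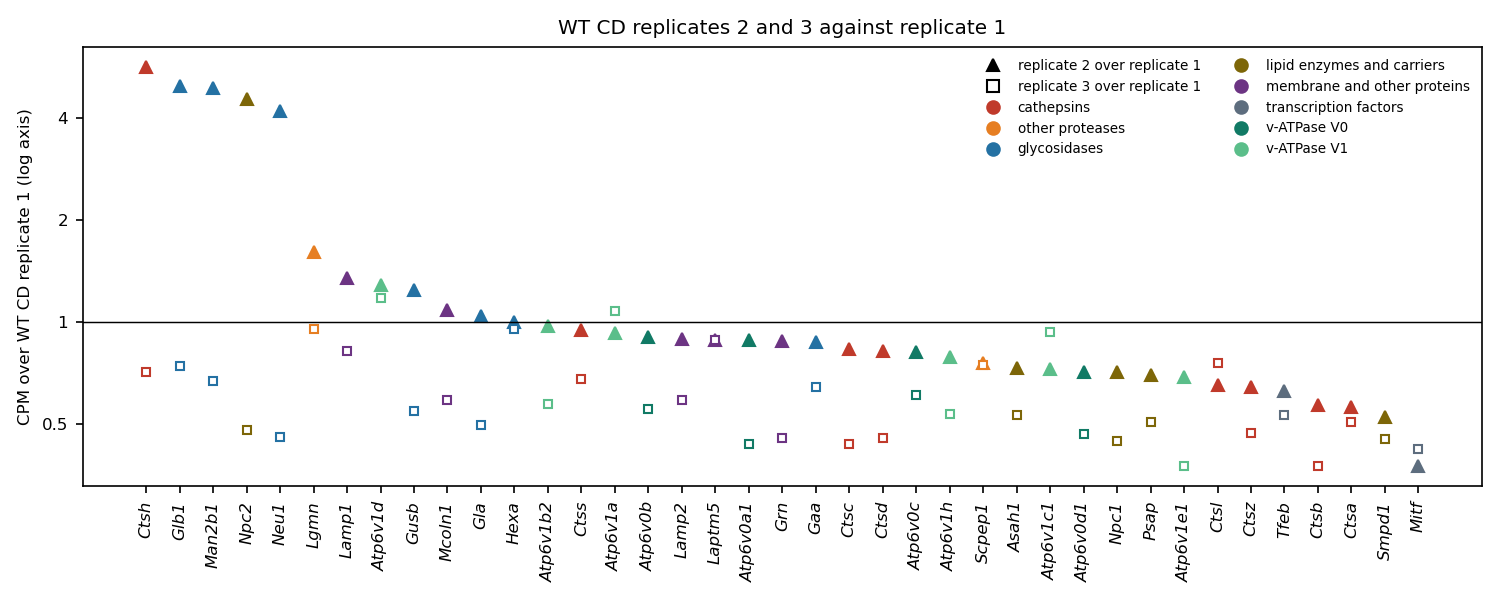
CPM of each of the 39 genes in WT CD replicate 2 (triangles) and replicate 3 (open squares) divided by its CPM in WT CD replicate 1, on a log axis, with colours for the classes. The 5 genes at the left, Ctsh, Glb1, Man2b1, Npc2 and Neu1, lie between 4.17 and 5.64 for replicate 2, while the others lie between 0.376 and 1.61.

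Among the cathepsins, Ctss rose most. It encodes cathepsin S, a cysteine protease of antigen-presenting cells that works on the invariant chain of MHC class II. Its level was 52.0 and 49.3 CPM in WT CD [35.4], 296, 509 and 902 in WT HFD, 2288, 2689 and 2029 in HoipA-KO CD and 1184, 2491 and 1386 in HoipA-KO HFD. The 4 groups did not overlap except for both HoipA-KO groups, and on CD the fold change was 46.1-fold (log2 5.53 ± 0.58, adjusted p = 0.000452). Ctsz, a carboxypeptidase, had 170.4 and 109 CPM in WT CD [80.2], 294, 394 and 547 in WT HFD, 933, 1079 and 1057 in HoipA-KO CD and 618, 1095 and 816 in HoipA-KO HFD, which on CD gave 2.87 ± 0.36 on the log2 scale (adjusted p = 0.000593). Ctsa, Ctsb, Ctsl and Ctsd rose on CD as well, within a narrow range of 2.71 to 2.80. Ctsc, the dipeptidyl peptidase that activates granule serine proteases, stood apart from them. It was at 185 and 154 CPM in WT CD [80.9], 144, 182 and 186 in WT HFD, 186, 261 and 162 in HoipA-KO CD and 232, 235 and 252 in HoipA-KO HFD, and the groups on CD overlapped (0.26 ± 0.22, adjusted p = 0.363).

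Both other proteases rose on CD. Lgmn encodes legumain, an asparaginyl endopeptidase that also matures cathepsins, and had 70.8 and 114 CPM in WT CD [67.6], 228, 437 and 658 in WT HFD, 1256, 1580.4 and 1278 in HoipA-KO CD and 1095, 1637 and 1381 in HoipA-KO HFD. No HoipA-KO library overlapped with a WT library on either diet, and the rise on CD was 14.8-fold (log2 3.89 ± 0.47, adjusted p = 0.000545). Scpep1, a serine carboxypeptidase, was at 50.1 and 38.0 CPM in WT CD [37.5], 95.3, 147 and 211 in WT HFD, 292, 385 and 254 in HoipA-KO CD and 218, 371 and 268 in HoipA-KO HFD, with 2.82 ± 0.39 on the log2 scale on CD (adjusted p = 0.000822).

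Of the glycosidases, Gla and Gusb had the largest log2 fold changes. Gla, the α-galactosidase A that removes the terminal galactose of globotriaosylceramide, was at 9.29 and 9.67 CPM in WT CD [4.62], 21.6, 36.4 and 61.4 in WT HFD, 123, 181 and 108 in HoipA-KO CD and 80.2, 148 and 90.2 in HoipA-KO HFD. It was scarce in WT CD, where the 3 libraries lay under 10 CPM, and rose 14.5-fold on CD (log2 3.85 ± 0.49, adjusted p = 0.000628). Gusb, the β-glucuronidase, went from 72.5 and 90.3 CPM in WT CD [39.8] to 541, 721 and 485 in HoipA-KO CD, with 157, 269 and 452 in WT HFD and 400.2, 719 and 568 in HoipA-KO HFD (2.84 ± 0.46 on CD, adjusted p = 0.00159). Hexa, the β-hexosaminidase α subunit, rose by 2.43 ± 0.37 on the log2 scale (adjusted p = 0.00122). Gaa, which degrades lysosomal glycogen, rose by 0.54 ± 0.15 only (adjusted p = 0.018). It was at 0.44 and not called without WT CD replicate 2, with 1 WT CD library left. Neu1 was at 47.9, 49.3 and 62.0 CPM in WT HFD, 72.4, 83.9 and 83.8 in HoipA-KO CD and 66.7, 88.6 and 83.5 in HoipA-KO HFD, all between WT CD replicates 1 and 2.

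Enzymes and carriers of lipids were divided. Psap was at 1624 and 1137 CPM in WT CD [825], 2631, 4402 and 6402 in WT HFD, 13524, 15516 and 12818 in HoipA-KO CD and 8569, 17425 and 9404 in HoipA-KO HFD. It rose 10.1-fold on CD (log2 3.34 ± 0.49, adjusted p = 0.00101) without overlap. Npc1, the membrane protein that exports cholesterol from the lysosome, had 43.6 and 31.0 CPM in WT CD [19.5], 57.8, 69.8 and 107 in WT HFD, 179, 256 and 156 in HoipA-KO CD and 115, 232 and 130.1 in HoipA-KO HFD. It rose on CD (2.40 ± 0.41, adjusted p = 0.00195). The values of its soluble partner Npc2 overlapped on CD, through WT CD replicate 2 alone. With replicate 3 in place of replicate 2, Npc2 was at 0.74 ± 0.30, adjusted p = 0.0797. Asah1, the acid ceramidase, rose by 2.06 ± 0.37 (adjusted p = 0.00257). Smpd1, the acid sphingomyelinase that makes ceramide, had the opposite sign. It was at 102 and 53.5 CPM in WT CD [46.3], 99.9, 98.6 and 87.4 in WT HFD, 53.0, 55.1 and 59.7 in HoipA-KO CD and 57.8, 56.0 and 57.5 in HoipA-KO HFD. Its groups overlapped on CD (-0.48 ± 0.22, adjusted p = 0.116), whereas on HFD they were separate and it fell (-0.74 ± 0.20, adjusted p = 0.0443). Without WT CD replicate 2 Smpd1 was at -0.86 on CD, and without WT CD replicate 1 at 0.054, each with 1 WT CD library left. With replicate 3 in place of replicate 2, edgeR did not call Smpd1 on CD (-0.44 ± 0.27, adjusted p = 0.232).

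All 5 membrane and other proteins rose on CD. Laptm5, a lysosomal membrane protein of hematopoietic cells, was at 46.6 and 41.1 CPM in WT CD [41.1], 172, 319 and 547 in WT HFD, 1152, 1272 and 1004 in HoipA-KO CD and 669, 1355 and 929.6 in HoipA-KO HFD. On CD the rise was 26.1-fold (log2 4.70 ± 0.54, adjusted p = 0.000493), and the groups did not overlap on either diet. Grn, the precursor of the granulins, was at 283 and 249 CPM in WT CD [129], 449.8, 679 and 945 in WT HFD, 1535, 1796 and 1779 in HoipA-KO CD and 1217, 1927 and 1787 in HoipA-KO HFD (2.68 ± 0.35 on CD, adjusted p = 0.000637). The structural proteins of the lysosomal membrane rose far less than Laptm5. Lamp1 was at 668 and 901 CPM in WT CD [549], 783, 1030.5 and 1268 in WT HFD, 1719, 2146 and 1597 in HoipA-KO CD and 1248, 2061 and 1313 in HoipA-KO HFD (1.21 ± 0.31 on CD, adjusted p = 0.0139). Lamp2 was at 227 and 202 CPM in WT CD [134], 267, 347 and 429 in WT HFD, 495, 641 and 381 in HoipA-KO CD and 409, 584 and 388 in HoipA-KO HFD (1.24 ± 0.30 on CD, adjusted p = 0.0103). For both, HoipA-KO and WT libraries were separate on CD and overlapped on HFD. Mcoln1, a calcium channel of the lysosome, had the smallest rise of the class, from 34.5 and 37.4 CPM in WT CD [20.4] to 49.6, 53.3 and 56.2 in HoipA-KO CD (0.56 ± 0.14, adjusted p = 0.0128), with 32.9, 34.8 and 41.6 in WT HFD and 44.0, 52.4 and 49.2 in HoipA-KO HFD.

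**Figure D3:**
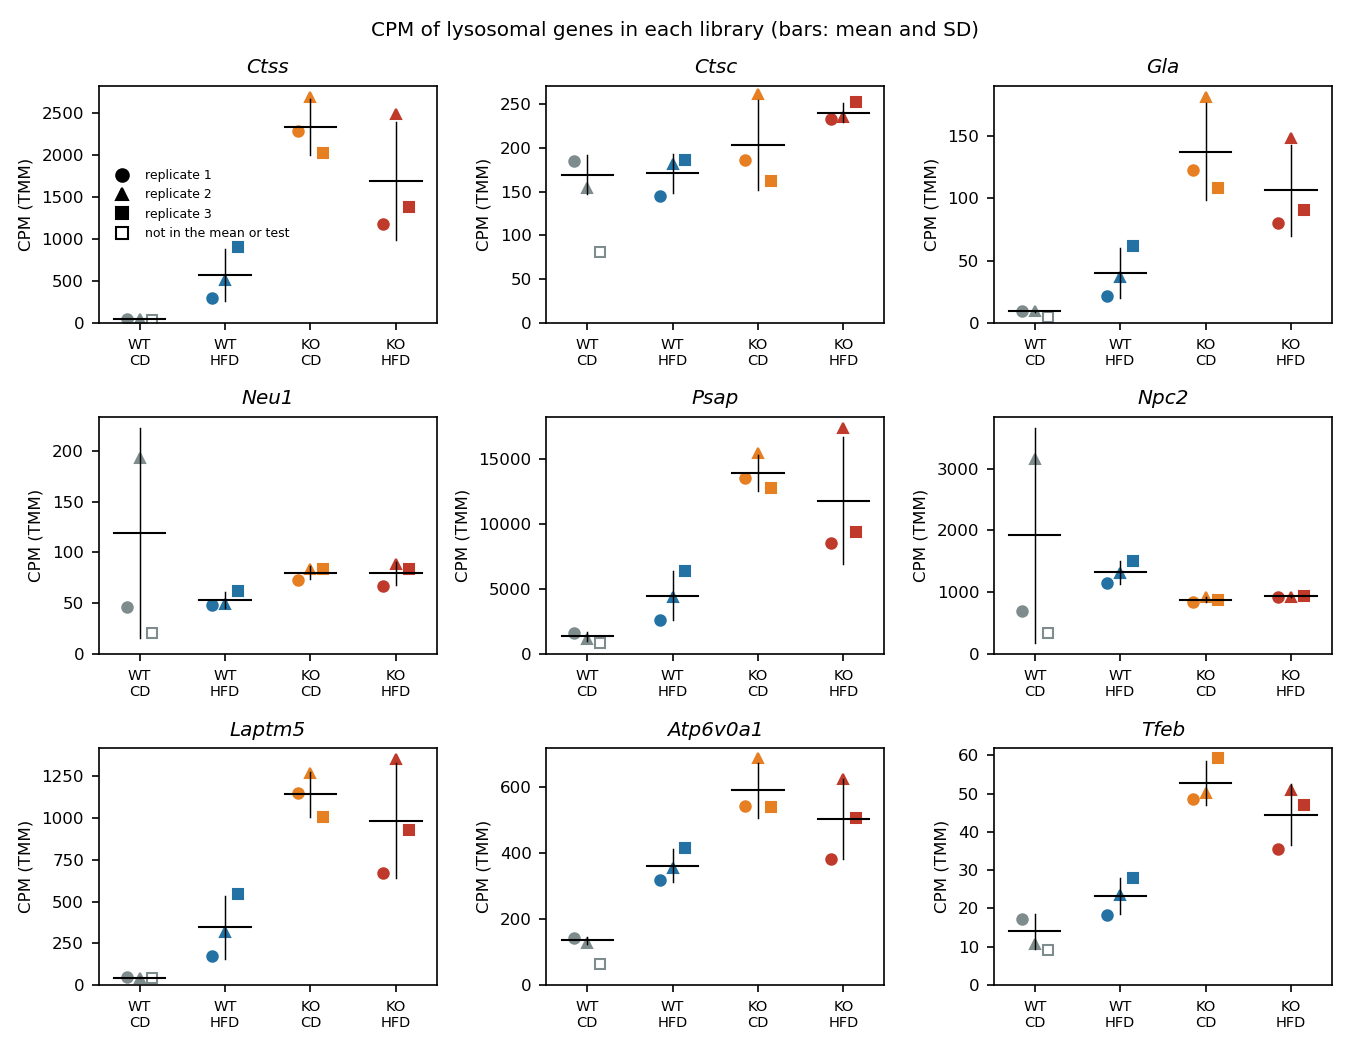
CPM of 9 members in each library, by group, with a marker for each replicate number, horizontal bars for the mean and vertical bars for the SD, and WT CD replicate 3 as an open symbol outside the mean. Ctss, Gla, Psap, Laptm5, Atp6v0a1 and Tfeb are higher in each HoipA-KO CD library than in any WT CD library, Ctsc overlaps, and in Neu1 and Npc2 the WT CD replicate 2 stands above all other libraries.

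The proton pump rose on CD in both sectors, with all 4 V0 subunits and 3 of 6 V1 subunits called higher, where 18.9% of all genes were. The median log2 fold change was 1.73 in V0 and 1.24 in V1. All HoipA-KO libraries exceeded all WT libraries for all 10 subunits, against 28.3% of all genes. Atp6v0a1, an isoform of the subunit that lines the proton path, was at 144 and 127 CPM in WT CD [62.7], 317, 355 and 414 in WT HFD, 542, 687 and 541 in HoipA-KO CD and 381, 623 and 505 in HoipA-KO HFD (2.13 ± 0.25 on CD, adjusted p = 0.000515). Atp6v0c, which forms the proteolipid ring, was at 237 and 194 CPM in WT CD [144], 265, 360.3 and 435 in WT HFD, 771, 935 and 891 in HoipA-KO CD and 537, 922 and 670.1 in HoipA-KO HFD (2.01 ± 0.29 on CD, adjusted p = 0.00103). Within V0 the smallest rise was that of Atp6v0d1, from 139 and 99.5 CPM in WT CD [65.2] to 202, 245 and 206 in HoipA-KO CD (0.86 ± 0.20, adjusted p = 0.00977), with 135, 161 and 161 in WT HFD and 163, 223 and 198 in HoipA-KO HFD. Without WT CD replicate 2, with 1 WT CD library left, Atp6v0d1 was at 0.64 and not called. In V1, the subunits that form the ATPase hexamer moved furthest. Atp6v1b2 was at 135 and 131 CPM in WT CD [77.3], 214, 335 and 456 in WT HFD, 758, 1026 and 686 in HoipA-KO CD and 503, 902 and 689 in HoipA-KO HFD (2.63 ± 0.38 on CD, adjusted p = 0.000962), and Atp6v1a was at 95.9 and 89.1 CPM in WT CD [103], 158, 235 and 331 in WT HFD, 481, 745 and 307 in HoipA-KO CD and 303, 580.4 and 337 in HoipA-KO HFD (2.47 ± 0.47 on CD, adjusted p = 0.00351). Atp6v1c1, which joins the sectors, rose by 1.69 ± 0.32 (adjusted p = 0.0035). Subunits of the stalk and the regulatory subunit H were not called, with Atp6v1h at 0.78 ± 0.29 (adjusted p = 0.0548), Atp6v1d at 0.53 ± 0.21 (adjusted p = 0.0686) and Atp6v1e1 at 0.44 ± 0.20 (adjusted p = 0.108). Atp6v1e1 was at 213 and 147 CPM in WT CD [80.3], 189, 199 and 199 in WT HFD, 224, 275 and 233 in HoipA-KO CD and 180.4, 242 and 195 in HoipA-KO HFD.

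Of 15 pump genes outside the 39, 12 passed the filter. Of these, 5 rose and 2 fell on CD, where 18.9% of all genes were called higher and 18.8% lower. Tcirg1, the a3 isoform of osteoclasts and macrophages, was at 25.1 and 16.5 CPM in WT CD [15.0] and 342, 392 and 395 in HoipA-KO CD (4.18 ± 0.46, adjusted p = 0.000452), while Atp6v0a2 was at 0.29 ± 0.16 (adjusted p = 0.184) and Atp6v0a4 at -1.26 ± 0.86 (adjusted p = 0.271). Atp6v0a4 was at 0.261 and 5.96 CPM in WT CD [2.01] and its direction rested on replicate 2. Without that library, with 1 WT CD library left, Atp6v0a4 was at 2.31. With replicate 3 in its place Atp6v0a4 was at 0.18 ± 0.69, adjusted p = 0.854. Atp6v0d2, the d2 isoform known from osteoclasts, was at 4.68 and 12.2 CPM in WT CD [2.06], 66.1, 189.7 and 353 in WT HFD, 678, 934 and 547 in HoipA-KO CD and 363, 763 and 457 in HoipA-KO HFD (6.41 ± 0.86, adjusted p = 0.000763), where its counterpart Atp6v0d1 rose by 0.86. Atp6v0e2 fell, from 95.6 and 57.3 CPM in WT CD [40.7] to 14.8, 9.97 and 17.4 in HoipA-KO CD (-2.44 ± 0.49, adjusted p = 0.00438), and Atp6v0e was at 0.23 ± 0.15 (adjusted p = 0.24). Atp6v1f (0.84 ± 0.20, adjusted p = 0.00914) and the accessory proteins Atp6ap1 (1.01 ± 0.22, adjusted p = 0.00698) and Atp6ap2 (1.85 ± 0.33, adjusted p = 0.00248) rose. Atp6v1g1 was at 0.16 ± 0.27 (adjusted p = 0.661) and Atp6v1g2 at -0.069 ± 0.28 (adjusted p = 0.865). Atp6v1c2 was called lower (-4.98 ± 1.18, adjusted p = 0.00967), a call that rested on WT CD replicate 2. Without that library, with 1 WT CD library left, Atp6v1c2 was at -1.39. With replicate 3 in its place Atp6v1c2 was at -1.25 ± 0.77, adjusted p = 0.228. The 3 genes under the filter were seen in WT CD replicates 2 or 3. Atp6v1b1 was at 4.44 and 5.97 CPM there, Atp6v1g3 at 13.9 CPM in replicate 2 and Atp6v1e2 at 61.0 CPM in replicate 3, and no library outside WT CD exceeded 0.101 CPM for any of them.

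Both transcription factors rose on CD. Tfeb was at 17.2 and 10.8 CPM in WT CD [9.14], 18.4, 23.5 and 27.9 in WT HFD, 48.7, 50.3 and 59.4 in HoipA-KO CD and 35.6, 51.1 and 47.0 in HoipA-KO HFD, and rose 3.78-fold (log2 1.92 ± 0.27, adjusted p = 0.000834). Mitf was at 16.1 and 6.04 CPM in WT CD [6.79], 17.7, 23.0 and 40.2 in WT HFD, 57.8, 71.0 and 44.2 in HoipA-KO CD and 36.3, 64.8 and 43.0 in HoipA-KO HFD (2.38 ± 0.50 on CD, adjusted p = 0.00581). WT and HoipA-KO libraries were separate on CD for both, and overlapped on HFD for Mitf. Of the other family members, Tfe3 rose on CD by 1.23 ± 0.19 (adjusted p = 0.00117). Tfec, found mainly in myeloid cells, rose from 0.428 and 0.803 CPM [0.383] to 15.4, 25.3 and 14.4 (4.89 ± 0.56, adjusted p = 0.000495), the largest log2 change of these 4 factors.

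The promoters of the members were searched for the E-box CACGTG and for its extended form GTCACGTG, on both strands, in windows of 300 bases around RefSeq start sites (GRCm38.p6, 250 bases before and 50 after the start). Windows were found for 32 of the 39 genes, and not for Asah1, Atp6v1b2, Atp6v1c1, Atp6v1h, Ctsb, Ctsh and Npc1. The E-box was present in 12 of 41 member windows (29.3%) and in 7.15% of all 32851 windows. The extended form, which contains the E-box, was present in 9 member windows (22%) and in 2.25% of all windows, while the 10-base palindrome GTCACGTGAC was present in 0 member windows and 0.326% of all. By class, the extended form was found for 2 of 6 cathepsins, 2 of 7 glycosidases and 2 of 7 pump subunits with a window. A match describes these letters only and does not show that a factor binds. The 100 bases before the start are shown for 1 membrane protein, 1 calcium channel, 1 glycosidase and 1 pump subunit with the extended form and for Ctss, the member with the largest rise, which has no E-box in its window. Capitals mark the E-box or its extended form, 5′ to 3′ on the strand of the gene.
Lamp1 (chr8:13159061-13159160, plus strand): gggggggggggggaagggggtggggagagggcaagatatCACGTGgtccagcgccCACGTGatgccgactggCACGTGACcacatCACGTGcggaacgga
Mcoln1 (chr8:3500419-3500518, plus strand): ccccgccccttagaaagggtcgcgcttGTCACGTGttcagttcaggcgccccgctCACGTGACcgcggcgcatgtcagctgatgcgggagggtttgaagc
Glb1 (chr9:114400978-114401077, plus strand): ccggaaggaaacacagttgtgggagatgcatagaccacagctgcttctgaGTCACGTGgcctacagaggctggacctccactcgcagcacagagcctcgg
Atp6v0b (chr4:117887330-117887429, minus strand): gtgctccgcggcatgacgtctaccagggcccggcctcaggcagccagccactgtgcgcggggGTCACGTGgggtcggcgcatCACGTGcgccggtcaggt
Ctss (chr3:95526686-95526785, plus strand): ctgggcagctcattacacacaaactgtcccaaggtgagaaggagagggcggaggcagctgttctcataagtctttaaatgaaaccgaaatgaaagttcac

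On HFD, the protease genes Lgmn and Ctss, Laptm5 and 8 further members rose in HoipA-KO GWAT. Of the 39 genes, 11 were called higher in HoipA-KO, where 4.2% of all genes were, and 1 lower (Smpd1), where 7.62% of all genes were (edgeR, adjusted p under 0.05). The 11 were Ctsl, Ctss, Ctsz, Lgmn, Gla, Psap, Laptm5, Grn, Tfeb, Atp6v0b and Atp6v0c. The median log2 fold change of the 39 was 0.90, against 0.06 over all genes, and all HoipA-KO libraries exceeded all WT libraries for 27 of 39, against 20.7% of all genes. Cathepsins had 3 of 8 called and a median of 1.02, glycosidases 1 of 7 and 0.90, and pump subunits 2 of 10 and 0.65. Lgmn changed most (1.64 ± 0.36, adjusted p = 0.0253), followed by Ctss (1.57 ± 0.41, adjusted p = 0.0389) and Laptm5 (1.51 ± 0.39, adjusted p = 0.0395). With all 12 libraries, which adds to the spread that the groups share, only Lgmn was called, and 503 of all genes were. Without WT HFD replicate 3, 20 were called higher, with 2601 of all genes called. None were called without WT HFD replicate 1 or 2, nor without HoipA-KO HFD replicate 2 or 3. In these fits 279, 331, 313 and 550 of all genes were called, in that order. They held 18, 21, 16 and 23 members at an unadjusted p under 0.05, against 26 over the 11 libraries. The HFD calls thus depended on which pools were fitted, for the members as for all genes. Leaving out a library of the other diet alters the spread that the groups share, and also the filter and the scaling. Counts of 4, 7 and 6 came without HoipA-KO CD replicates 1, 2 and 3, where 1126, 1858 and 1826 of all genes were called. The call of Smpd1 was lost without WT HFD replicate 1 or 2, HoipA-KO CD replicate 1 or 2 or any HoipA-KO HFD library. The summed macrophage markers were at 1941, 3439 and 5574 CPM in WT HFD and at 7045, 10650.3 and 7843 in HoipA-KO HFD, with 4 of 10 called higher, as were 3 of 7 markers of lipid-associated macrophages (median 1.60) and 2 of 5 mast cell markers (2.47). All 10 adipocyte markers (median -2.04) and 3 of 5 endothelial markers (-0.94) were called lower, and with all 12 libraries 7 adipocyte markers and 0 of the others. The part of these markers in the members' values was not tested.

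In WT mice the HFD raised a part of the list. Of the 39 genes, 16 were called higher in WT HFD than in WT CD, where 9.35% of all genes were, and 0 lower, where 5.47% were (edgeR). At an unadjusted p under 0.05 there were 25 members in either direction, and DESeq2 called 1 lower. Of the cathepsins 6 of 8 were called, with a median of 1.53, of the pump subunits 2 of 10, with 0.53, and of the glycosidases 3 of 7, with 0.42. The median of the glycosidases rested on WT CD replicate 2. Without it and with 1 WT CD library left, the 3 medians were 1.25, 0.38 and 1.25 in this order. They were 1.71, 0.64 and 1.505, with 6, 2 and 5 called, when replicate 3 took its place. Without replicate 2, with 1 WT CD library left, Ctsh was at 1.48 and Npc2 at 0.93, where the 11 libraries gave -0.25 and -0.54. With replicate 3 in its place, edgeR called Ctsh (1.71 ± 0.26, adjusted p = 0.00977) and Npc2 (1.36 ± 0.31, adjusted p = 0.0226) higher. Ctss (3.49 ± 0.52, adjusted p = 0.00632) and Laptm5 (2.98 ± 0.49, adjusted p = 0.00695) rose most. Of the pump, Atp6v0a1 (1.42 ± 0.24, adjusted p = 0.00791) and Atp6v1b2 (1.33 ± 0.35, adjusted p = 0.036) rose, whereas Lamp1 (0.39 ± 0.30, adjusted p = 0.41), Lamp2 (0.70 ± 0.29, adjusted p = 0.131), Tfeb (0.73 ± 0.25, adjusted p = 0.0778) and Mitf (1.29 ± 0.48, adjusted p = 0.0973) were not called. The count of members fell to 7 without WT HFD replicate 2 and to 5 without WT HFD replicate 3, where 1137 and 1045 of all genes were called. It was 21 with all 12 libraries, where 2715 of all genes were called. A fit of these 2 groups alone called 0 members and 0 of all genes, with 19 members at an unadjusted p under 0.05. Without WT CD replicate 1, some members were called lower, against WT CD replicate 2 as the only WT CD library. Markers of other cells moved as well, with 9 of 10 macrophage markers (median 2.44), 5 of 7 markers of lipid-associated macrophages (3.08), 4 of 5 mast cell markers (3.86) and 4 of 6 markers of fibroblasts and progenitors (1.40) called higher and 1 of 10 adipocyte markers called lower, and their part was not tested. This comparison shares its WT CD libraries with that of the genotypes on CD, so the values of both stand side by side and are not independent.

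In HoipA-KO mice no member passed the test of the diet. The edgeR test called 0 of 39 higher and 0 lower, where 0% of all genes were called in either direction, and 0 members had an unadjusted p under 0.05, as against 415 of all genes. DESeq2 called 0 members and 7 of all genes. The log2 fold changes lay between -0.47 (Ctss, SE 0.40) and 0.24 (Ctsc, SE 0.19), with a median of -0.22. Deviations of same-numbered HoipA-KO libraries correlated at 0.150, 0.509 and 0.276, though the labels name no pairing. A fit of these 6 libraries paired by number, added after the data were seen, also called 0 members and 0 of all genes. It had 7 members and 1300 genes at an unadjusted p under 0.05. Of the 39 genes, 17 were lower on HFD in each of the 3 pairs, against 17.8% of the 16826 genes tested, and 2 were higher in each. HoipA-KO HFD replicate 2 had the highest level of the 3 pools of its group for Ctss, Psap, Gla and Laptm5, and replicate 1 the lowest.

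The genotype difference was smaller on HFD than on CD by the test of the interaction for 4 members, Ctss (-3.96 ± 0.64, adjusted p = 0.0256), Laptm5 (-3.19 ± 0.61, adjusted p = 0.0284), Gla (-2.44 ± 0.58, adjusted p = 0.0485) and Atp6v0a1 (-1.65 ± 0.32, adjusted p = 0.0285), each value being the log2 difference of HoipA-KO and WT on HFD minus that on CD. In this direction 3.58% of all genes were called, and in the other, with 0 members, 0.331% (24 members had an unadjusted p under 0.05 in either direction, and DESeq2 called 0 positive). For these 4 genes the HoipA-KO levels on both diets overlapped, and the WT levels were higher on HFD than on CD in every library. Markers of cells moved by the same test. Called lower were 5 of 10 macrophage markers (median -2.23), 5 of 7 of lipid-associated macrophages (-3.27) and 1 of 6 of fibroblasts and progenitors (-0.98). Of 10 adipocyte and 5 mast cell markers 0 were called, and their part in the members' values was not tested. With all 12 libraries Ctsz, Lgmn and Scpep1 were called as well. Leaving out WT HFD replicate 2, any HoipA-KO CD library, or replicate 1 or 3 of HoipA-KO HFD, ended all 4 calls. Only 1 to 4 of all genes were called in these fits. Without WT HFD replicate 3, 2 members were left, with 226 of all genes called. There were 12 members without WT HFD replicate 1, with 999 of all genes called.

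**Figure D4:**
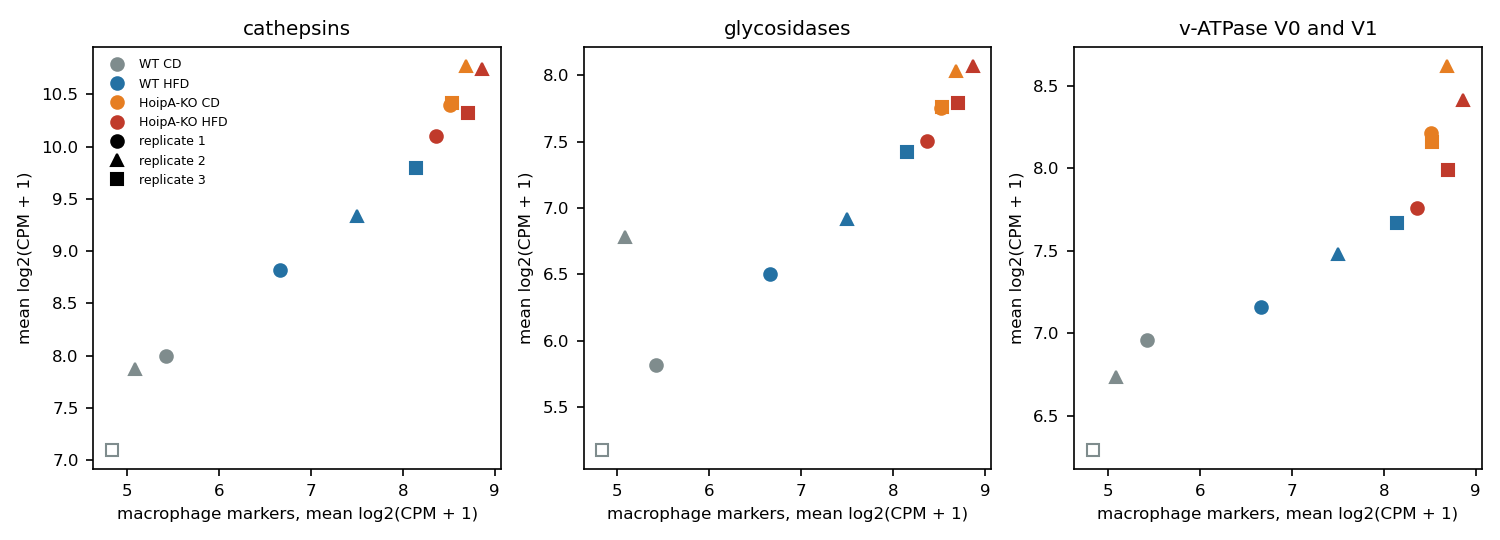
Mean log2(CPM + 1) of the cathepsins, the glycosidases and the pump subunits (vertical axes) against that of 10 macrophage markers (horizontal axes) in the 12 libraries, coloured by group, with WT CD replicate 3 open. The cathepsins run from 7.10 in WT CD replicate 3 to 10.77 in HoipA-KO CD replicate 2, and for the glycosidases WT CD replicate 2 (6.78) stands above the other WT CD libraries.

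Cathepsins and macrophage markers are given side by side for each library, as the mean of log2(CPM + 1), which is read between libraries and not between genes. Cathepsins were at 8.00 and 7.87 in WT CD [7.10], 8.82, 9.33 and 9.80 in WT HFD, 10.39, 10.77 and 10.42 in HoipA-KO CD, and 10.11, 10.74 and 10.32 in HoipA-KO HFD. The macrophage markers were at 5.42 and 5.09 in WT CD [4.83], 6.66, 7.50 and 8.15 in WT HFD, 8.52, 8.68 and 8.53 in HoipA-KO CD, and 8.37, 8.86 and 8.70 in HoipA-KO HFD. Both were lowest in WT CD and highest in HoipA-KO mice, and WT HFD libraries lay between.

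Other lysosomal genes rose as well. Of 37 further lysosomal genes, 25 were called higher and 0 lower on CD, with a median of 1.15, where 18.9% and 18.8% of all genes were called. On HFD 11 were called higher and 0 lower, with a median of 0.61, where 4.2% and 7.62% of all genes were, and with all 12 libraries 4 were called higher. On CD the largest rises were those of Cd68, a glycoprotein of macrophage lysosomes (5.86 ± 0.65, adjusted p = 0.000464), Ctsk, the collagen-degrading cathepsin K (5.77 ± 0.66, adjusted p = 0.000495), and Slc11a1, a divalent metal transporter of phagosomes (5.14 ± 0.67, adjusted p = 0.000662). On HFD they were those of Ctsk (2.40 ± 0.47, adjusted p = 0.0172), Cd68 (1.57 ± 0.45, adjusted p = 0.0495) and Hgsnat, a heparan sulfate acetyltransferase (1.42 ± 0.30, adjusted p = 0.022). Not every cathepsin rose, since Ctsf was at -0.15 ± 0.13 (adjusted p = 0.389), Ctso at -0.24 ± 0.17 (adjusted p = 0.272) and Ctsw at 0.84 ± 0.63 (adjusted p = 0.313) on CD, named after their values were seen. Inhibitors of cathepsins rose alongside. Cstb (cystatin B) was at 73.4 and 74.2 CPM in WT CD [30.5] and 342, 418 and 378 in HoipA-KO CD (2.36 ± 0.27, adjusted p = 0.000513). Cst3 (cystatin C) was at 0.77 ± 0.22 (adjusted p = 0.0206). It was at 0.52 and not called without WT CD replicate 2, with 1 WT CD library left. Of 7 genes that deliver enzymes to the lysosome, 3 rose on CD, M6pr and Igf2r, which encode the mannose 6-phosphate receptors, and Nagpa, which uncovers their ligand, and 1 fell, the sorting receptor Sort1 (-1.54 ± 0.28, adjusted p = 0.00309), against 18.9% and 18.8% of all genes. M6pr was at 0.80 and not called without WT CD replicate 2, with 1 WT CD library left. Sort1 was not called with replicate 3 in place of replicate 2 (-0.89 ± 0.32, adjusted p = 0.0535).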

How the data were processed

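Per the labels and the study's methods, polyadenylated RNA of whole GWAT was sequenced on stranded libraries, each from RNA of 3 pooled mice. The authors trimmed reads with Trim Galore 0.6.7, aligned them with STAR 2.7.10a and quantified genes with Salmon 1.5.2, and deposited estimated counts per gene, without normalization. The labels name GRCm38, the study's methods a human assembly, and the annotation version is not given in the sources used here. Tables of the authors' own DESeq2 1.38.1 comparisons hold fold changes, p-values and CPM, and were not used. They have no CPM column for WT CD replicate 3, and the reason is not stated.

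From these estimated counts, rounded to whole numbers, edgeR 4.0.16 (R 4.3.3) fitted the 4 groups in 1 quasi-likelihood model of 11 libraries after filterByExpr and TMM, which left 18427 genes, and p-values were adjusted by Benjamini-Hochberg over all of them (threshold 0.05). The 59 rows with a gene identifier and no symbol were kept. CPM are TMM-normalized, and class means use log2(CPM + 1). Labels share replicate numbers between groups. Deviations from the group means correlated above 0.1 in all 3 same-numbered pairs of HoipA-KO libraries on CD and HFD (0.150, 0.509 and 0.276). No other comparison had this for all pairs. The paired fit of the HoipA-KO libraries thus rests on the data and not on the labels, and libraries with different numbers were not compared. DESeq2 1.42.0 and the other settings described in the closing section were alternatives. The script was tested on simulated counts. Totals of 30513500 to 60540260 counts make 3 counts worth at most 0.0983 CPM, a limit of counting error only. Salmon divides reads between similar genes by estimate, so paralogs such as the pump isoforms carry that uncertainty.

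Values in every library are given for Lamp1, Lamp2, Tfeb, Mitf and, in each class, the 2 members with the largest and the 1 with the smallest log2 fold change on CD. Pump genes, MiT factors and cathepsin inhibitors outside the list are given by value, and of the other lysosomal genes the 3 largest rises. Further genes were named after their values were seen. The members and lists were chosen with earlier results of these data known.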

Additional observations from a re-analysis of the deposited data

Results flagged for a closer look

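The difference between HoipA-KO and WT was itself different between the diets, by the test of the interaction in edgeR (adjusted p under 0.05), for 4 of 39 members and 7 related genes. By this test 3.58% of all genes were called lower and 0.331% higher. The 4 member calls ended without WT HFD replicate 2, any HoipA-KO CD library, or replicate 1 or 3 of HoipA-KO HFD. In each case the log2 difference on HFD minus that on CD was negative. Among the members the values were -3.96 for Ctss, -2.44 for Gla, -3.19 for Laptm5 and -1.65 for Atp6v0a1. Of 12 pump genes tested outside the list, 2 were called, Tcirg1 at -2.82 and Atp6v0d2 at -5.04. Of 37 other lysosomal genes, 3 were called, Ctsk at -3.36, Cd68 at -4.29 and Slc11a1 at -3.66. The MiT factor Tfec was at -2.79 and the cathepsin inhibitor Cstb at -1.53. The summed macrophage markers were at 557 and 769.7 CPM in WT CD, 1941 to 5574 in WT HFD and 7045 to 11826 in HoipA-KO mice on either diet, and their part in these values was not tested.

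In WT CD replicate 3, which entered no main test, Atp6v1e2, a pump subunit isoform known from testis, had 61.0 CPM, against at most 0.254 in any other library. The 5 germ cell markers of the testis summed to 6734 CPM in the same library, and where these transcripts came from was not tested.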

How the results depend on the processing

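On CD, the 29 members called higher stayed within 27 to 35 when any 1 library was left out, and under every other setting the count was within 1.5 times the main one. The count called lower, 0, became 1 with protein-coding genes alone or DESeq2 and 0 to 3 without single libraries. On HFD, the 11 called higher became 1 with all 12 libraries, 19 when scaled by library size alone, 24 with DESeq2, 0 at an adjusted p under 0.01 and 0 to 20 without single libraries, and the 1 called lower became 0 with all 12 libraries, 0 at 0.01 and 0 to 2 without single libraries. For the diet in WT, the 16 called higher became 0 when only these 2 groups were fitted, 3 at 0.01 and 5 to 28 without single libraries, and the 0 lower became 1 with DESeq2 and 0 to 5. For the interaction, the 4 called lower became 7 with all 12 libraries, 7 with at least 10 counts in every library, 18 with DESeq2, 0 at 0.01 and 0 to 23 without single libraries, and the 0 called higher 0 to 4. For the diet in HoipA-KO the count was 0 throughout. Fits without WT CD replicate 1 or 2 held 1 WT CD library unless replicate 3 was added. The ranges without single libraries include these fits. Over all genes the calls in either direction moved as well. They were 4208 on CD with only the 2 groups fitted and 8160 with DESeq2. On HFD they were 279 without WT HFD replicate 1, 503 with all 12 libraries and 4455 with DESeq2. For the diet in WT they were 0 with only the 2 groups, 1045 without WT HFD replicate 3 and 4551 with DESeq2. For the interaction they were 1 without HoipA-KO HFD replicate 3 and 2374 with DESeq2. The cause of these shifts was not tested, except that fits with fewer libraries or groups estimate the spread from fewer samples. Deviations of same-numbered libraries correlated at 0.150 to 0.509 between the HoipA-KO groups and at -0.375 to 0.374 between the others. Libraries with different numbers were not compared, and the labels do not say that a number pairs libraries. With the replicate block, 30 members were called higher on CD, 13 higher and 0 lower on HFD, 9 higher for the diet in WT, 0 for the diet in HoipA-KO, also with these 2 groups alone, and 2 lower for the interaction.

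Signs changed for members not called over the 11 libraries. Without WT CD replicate 2, with 1 WT CD library left, some had the other sign. Among them were Glb1 and Neu1 on CD and Ctsh and Npc2 for the diet in WT. Glb1 on CD was at 0.36 with all 12 libraries and 0.16 with the replicate block. For the diet in WT with all 12 libraries, Ctsh was at 0.18, Man2b1 at 0.11 and Atp6v1h at 0.11. In the same comparison Ctsc was at -0.040 with DESeq2's size factors, -0.067 without a filter, -0.025 with at least 10 counts, -0.082 with protein-coding genes, -0.080 with 2 groups and -0.040 with DESeq2, and Mcoln1 at -0.035, -0.062, -0.020, -0.080, -0.077 and -0.034 in that order and -0.035 with the block. Without single libraries, values on CD ran from -0.15 to 2.55 for Ctsh, -0.76 to 1.73 for Glb1, -1.28 to 1.22 for Neu1, -1.85 to 0.74 for Npc2 and -0.86 to 0.16 for Smpd1, and on HFD from -0.060 to 0.16 for Atp6v1e1. For the diet in WT they ran from -0.15 to 0.56 for Ctsc, -0.99 to 1.71 for Ctsh, -1.19 to 1.31 for Glb1, -1.03 to 1.505 for Man2b1, -1.85 to 0.65 for Neu1, -1.24 to 1.36 for Npc2, -0.10 to 0.96 for Smpd1, -0.19 to 0.41 for Mcoln1, -0.12 to 0.80 for Atp6v1e1 and -0.25 to 0.37 for Atp6v1h.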
